A study of Saccharomyces cerevisiae with 8 samples.

Results

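The 41 genes described here encode nuclear subunits of the mitochondrial respiratory chain and ATP synthase and enzymes of the tricarboxylic acid (TCA) cycle in budding yeast. They were chosen by name, with earlier results of these data known, as the nuclear ATP, COX, QCR, SDH, cytochrome and TCA cycle genes whose coding sequence (CDS) holds no intron. They comprise 11 genes of ATP synthase, 8 of cytochrome c oxidase, 8 of the cytochrome bc1 complex together with cytochrome c (CYC1), 4 of succinate dehydrogenase and 10 of the TCA cycle, out of 6669 nuclear CDS features counted. All 41 passed the filter on low counts, as did 6498 features in all.

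The respiratory chain of budding yeast passes electrons from NADH, succinate and other donors through ubiquinone, the cytochrome bc1 complex, cytochrome c and cytochrome c oxidase to oxygen, and the proton gradient so formed drives ATP synthase. The TCA cycle oxidizes acetyl groups in the mitochondrial matrix and feeds the chain, with succinate dehydrogenase belonging to both. Yeast ferments glucose even in air and holds many of these genes low while glucose is plentiful. The Hap2-Hap3-Hap4-Hap5 activator, whose Hap4 subunit is limiting on glucose, binds CCAAT boxes upstream of many of them. Respiratory complexes also contain subunits encoded by mitochondrial DNA.

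Ribodepleted total RNA of strain BY4741, a laboratory strain of the S288C lineage, was sequenced from 8 cultures in rich medium (YPD), with 1 library per condition and hence no replicates. LiCl only, a source of cationic and osmotic stress, was point 7 of a growth isobole. Points 2 to 6 mixed LiCl with cycloheximide, an inhibitor of translation elongation, in changing ratio, and cycloheximide only was point 1, with growth inhibited by 50% by design at all 7 points. The no drug culture received neither compound and was started from a frozen stock diluted 100-fold more than the 130-fold dilution used in drug wells, so that all cultures were collected after about 17 h near an OD600 of 0.5. Inoculum size and presence of drug therefore cannot be told apart in comparisons with no drug. Point numbers were used as an ordered position, and drug concentrations were not used here.

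The libraries held between 13693401 CDS counts (point 2) and 28042336 (LiCl only), and cycloheximide only came next to LiCl only with 23522386. A level in CPM is the gene's count in every 1000000 CDS counts after scaling by the trimmed mean of M values (TMM), a share of the CDS counts rather than an amount per cell. In these bulk cultures, fewer cells holding an RNA and less of it per cell cannot be told apart. The no drug library stood apart in its scaling factor, 0.84 against 0.96 to 1.07 in the drug libraries, so counts and medians of comparisons with it are also given by total counts. The part of depth and scaling in the results was not tested beyond that. LEU2, URA3 and MET17, which BY4741 lacks, had between 0 and 2 counts in each library, and the partly deleted HIS3 had between 347 and 1266. All 28 mitochondrially encoded features were at 0 counts in all 8 libraries, genes such as COX1, COB and ATP6 included, and no value is given for those subunits. The source of these 0 counts was not tested, and they are not read as absence of those RNAs.

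By TMM, the members' median log2 change from no drug lay between -0.27 and 0.11 at points 1 to 4. It was lower at point 5 and lowest in LiCl only. At point 2 the group medians ran from 0.02 for ATP synthase to -0.70 for succinate dehydrogenase. Total-count scaling places the drug libraries higher relative to no drug, with a members' median of 0.24 in cycloheximide only. The summed level of the 41 genes was 3787 CPM without drug, 3527, 3230, 3717 and 4097 CPM at points 1 to 4, and 2747, 2511 and 1938 CPM at points 5 to 7. Of the 7 drug libraries, point 4 held the highest level of 31 of the 41 members, whereas point 4 was the highest for 12.8% of all 6548 genes compared. LiCl only was the lowest of all 8 libraries for 39 members, against 22.9% of all genes (27.1% when only the 7 drug libraries are ranked), and the 2 others, ATP3 and QCR8, were lowest at point 6. Each of the 41 was lower at point 5 than at point 4, with a median log2 difference of -0.61, while 48.2% of all genes were lower at point 5. These steps are between single libraries and have no test.

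**Figure D1:**
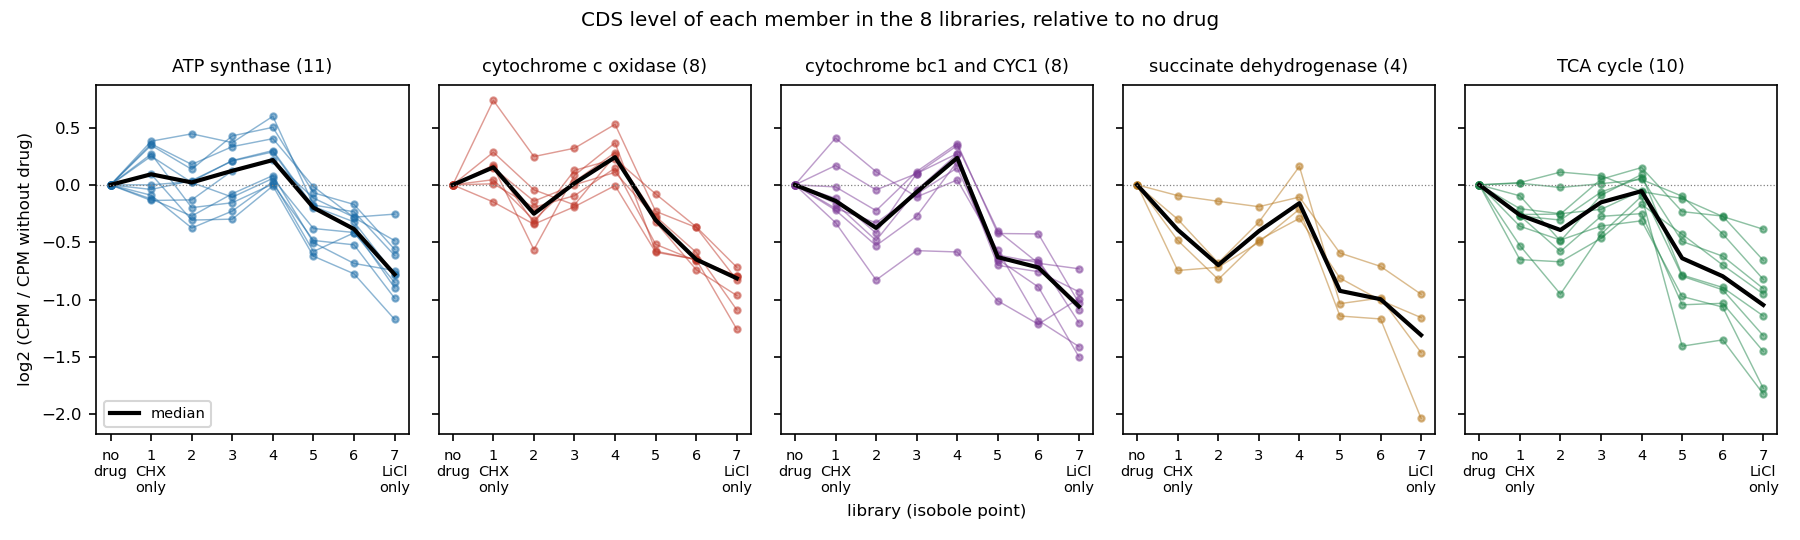
The CDS level of each of the 41 members in the 8 libraries (x axis, no drug and then isobole points 1 to 7), as log2 of its CPM over its CPM without drug (y axis), 1 line per gene and 1 panel per complex, with the panel's median in black. All panels bend down between points 4 and 5, and the lowest medians stand at point 7, from -0.78 for ATP synthase to -1.31 for succinate dehydrogenase.

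The trend over the 7 drug libraries was tested with edgeR's quasi-likelihood test, as a slope in log2 units per isobole point toward LiCl, with p values adjusted by Benjamini-Hochberg over all 6498 genes and called under 0.05. By this test 22 of the 41 members fell toward LiCl and 0 rose, where 15.1% of all genes fell and 16.5% rose. At an unadjusted p under 0.05 the counts were 37 and 0, by DESeq2 34 and 0, and by limma-voom 28 and 0. Over all genes 1131 fell and 1017 rose by DESeq2, and 1072 fell and 1147 rose by limma-voom. All 41 slopes were below 0, with a median of -0.15 per point against 0.00456 for all genes. The fall was called for 6 of 11 ATP synthase genes, 5 of 8 of cytochrome c oxidase, 4 of 8 of cytochrome bc1 with CYC1, 1 of 4 of succinate dehydrogenase and 6 of 10 of the TCA cycle. Median slopes of these groups lay between -0.13 and -0.16. The LiCl only library decided much of the count: without it 5 members fell (ATP17, ATP20, COX7, CYC1 and QCR8), 39 slopes stayed below 0 and those of KGD1 and LSC2 turned to 0.0048 and 0.027. Leaving out LiCl only also lowered the number of all genes that fell, from 982 to 486. Without point 4 the count of members was 37, where 1100 of all genes fell. Without point 6 it was 12, where 747 of all genes fell.

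**Figure D2:**
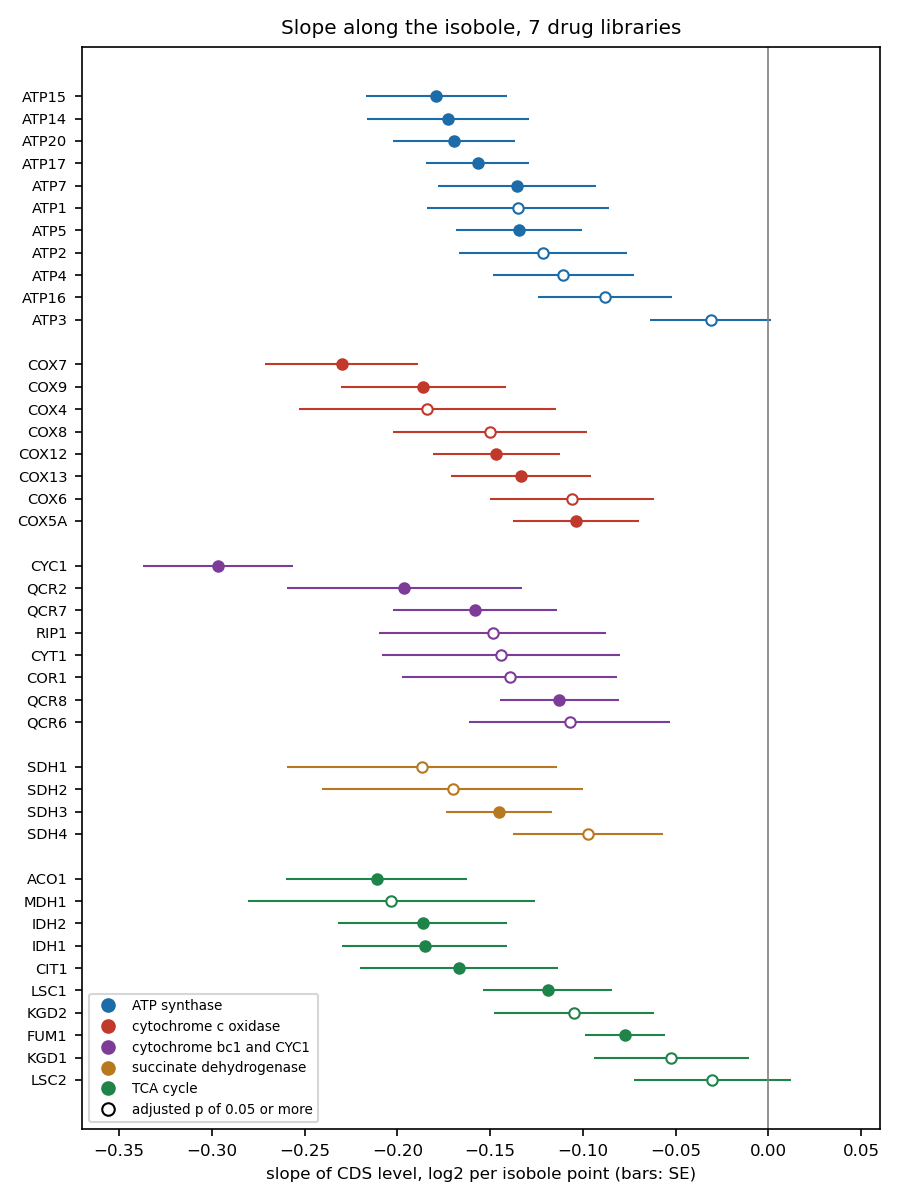
Slope of the CDS level of each member over the 7 drug libraries (x axis, log2 per isobole point, bars are the standard error, SE), ordered by complex (y axis), with filled points for an adjusted p under 0.05 and open points for the others. All 41 points lie left of 0, from -0.30 for CYC1 to -0.03 for LSC2 and ATP3.

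Curvature along the isobole was fitted as a further term beside the slope. Of the 41 members 40 had a curvature below 0, QCR8 (0.01) being the exception, and 1 was called by edgeR, ATP1 with a curvature of -0.07 ± 0.01 (SE) and an adjusted p = 0.0367, where 0.843% of all genes were called lower and 0.307% higher. At an unadjusted p under 0.05, 25 members had a lower and 0 a higher curvature. By DESeq2 10 members were called, and by total-count scaling 0. ATP1, the alpha subunit that forms the catalytic core of ATP synthase with ATP2, was at 342 CPM without drug and 332, 351, 395, 417, 298, 262 and 183 CPM at points 1 to 7. It overlaps a CDS feature on the opposite strand over 15.3% of its length. Its call was lost without point 1, 3, 4 or 7, which left 0 members called, while 8 were called without point 2 and 5 without point 5.

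LiCl only was compared with no drug for the effect of LiCl alone. All 41 members were lower in LiCl only, where 50.4% of all genes were, by a median of -0.95 on the log2 scale or 1.94-fold, against a median of -0.01 over all genes. At least 2-fold lower were 16 of the 41, where 7.16% of all genes were, and 0 members were at least 2-fold higher, where 11.3% of all genes were. The group medians were -0.78 for ATP synthase, -0.82 for cytochrome c oxidase, -1.06 for cytochrome bc1 with CYC1, -1.31 for succinate dehydrogenase and -1.05 for the TCA cycle. Scaling by total counts shifted the median of all genes to 0.35 and left 7 members at least 2-fold lower, with ATP3 turning higher. The members' median minus that of all genes was -0.94. A change of scaling moves every gene of the 2 libraries equally, so this difference could not change and is no check on the scaling. Fold changes of single genes against no drug are by TMM throughout, and total-count scaling makes each fall in LiCl only smaller. All these values are differences of single libraries with counting error only and have no replicate check.

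Cycloheximide only was compared with no drug for the effect of the translation inhibitor at the matched growth inhibition. Here 23 members were lower and 18 higher, where 49.1% of all genes were lower, with a median of -0.09 by TMM, which turned to 0.24 with 5 members lower under total-count scaling. No member differed by 2-fold, where 5.71% of all genes were at least 2-fold higher and 2.78% lower. The groups parted on the TMM scale: the medians were 0.09 for ATP synthase and 0.15 for cytochrome c oxidase, and -0.14 for cytochrome bc1 with CYC1, -0.39 for succinate dehydrogenase and -0.26 for the TCA cycle, beside 0.01 for all genes. Which of these medians lie above 0 depends on the scaling. Their order cannot, because a change of scaling moves all genes of the 2 libraries equally.

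The ends of the isobole were compared with each other because growth inhibition was matched there by design. All 41 members were lower in LiCl only than in cycloheximide only, where 48.7% of all genes were, with a median log2 difference of -0.95 beside 0.02 for all genes, and 18 were at least 2-fold lower, where 7.18% of all genes were, and 0 were at least 2-fold higher, where 6.28% of all genes were. The lowest was CYC1, 3.52-fold lower in LiCl only, and the least changed was ATP3, 1.09-fold lower. Under total-count scaling the median was -0.92. LiCl only and cycloheximide only enter the comparisons with the same no drug library, so these comparisons are not independent of each other.

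The genes of ATP synthase had the smallest group median in LiCl only, with a median log2 change relative to no drug of 0.22 at point 4, -0.20 at point 5, -0.39 at point 6 and -0.78 in LiCl only. Per kb of CDS without drug, their levels ran from 77.5 CPM for ATP20 to 320.8 CPM for ATP2, the beta subunit, which is the highest of the 41 members on that scale. ATP15 (YPL271W, chrXVI:30079-30267), the epsilon subunit of the rotating central stalk, was at 50.7 CPM without drug and 54.0, 40.95, 41.2, 50.4, 32.9, 29.6 and 22.5 CPM at points 1 to 7. Its slope was -0.18 ± 0.04 (SE; adjusted p = 0.00813). By TMM it was 2.25-fold lower in LiCl only than without drug, the only ATP synthase gene past 2-fold on that scale. It was highest in cycloheximide only and at about its no drug level again at point 4.

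ATP14 (YLR295C, chrXII:721999-722373), subunit h of the peripheral stalk, was at 34.5 CPM without drug and 45.0, 47.0, 44.6, 52.3, 30.6, 29.4 and 22.5 CPM at points 1 to 7, with a slope of -0.17 ± 0.04 (adjusted p = 0.0159). By TMM it stood above no drug through point 4 and below it from point 5 on. ATP14 shares 32 bases with a CDS feature on the same strand that held 83.1% as many counts, and reads in the shared bases were counted for both. ATP20 and ATP17, subunits g and f of the membrane part, fell likewise, with slopes of -0.17 ± 0.03 (adjusted p = 0.00549) and -0.16 ± 0.03 (adjusted p = 0.00371). ATP5 and ATP7, both of the peripheral stalk, also fell, with slopes of -0.13 ± 0.03 (adjusted p = 0.0161) and -0.14 ± 0.04 (adjusted p = 0.0366).

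The gamma subunit of the central stalk had the flattest slope of this complex. ATP3 (YBR039W, chrII:315575-316510) was at 98.5 CPM without drug and 89.6, 89.9, 107, 114, 90.9, 81.0 and 82.5 CPM at points 1 to 7, with all drug libraries between 81.0 and 114 CPM, and its slope of -0.03 ± 0.03 was not called (adjusted p = 0.493). ATP16 (YDL004W, chrIV:443029-443511), the delta subunit, was at 67.7 CPM without drug and 63.6, 52.2, 57.8, 69.1, 45.3, 50.7 and 39.4 CPM at points 1 to 7 and had a slope of -0.09 ± 0.04 (adjusted p = 0.0881). The subunits of the catalytic core, ATP1 and ATP2, and subunit b (ATP4) also missed the threshold, with slopes of -0.13 ± 0.05, -0.12 ± 0.05 and -0.11 ± 0.04 and adjusted p values of 0.0609, 0.0654 and 0.0508 by edgeR. ATP1, ATP2 and ATP4 were called by DESeq2 (adjusted p = 0.012, 0.0162 and 0.016) and by limma-voom (adjusted p = 0.0428, 0.0471 and 0.0396).

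Cytochrome c oxidase, the terminal enzyme of the chain, had group medians of 0.15, -0.25, 0.01, 0.24, -0.31, -0.65 and -0.82 relative to no drug at points 1 to 7. COX7 (YMR256C, chrXIII:778945-779127), a small membrane subunit, was at 23.6 CPM without drug and 39.4, 28.0, 29.5, 34.1, 20.1, 18.3 and 13.3 CPM at points 1 to 7. It was highest in cycloheximide only, 1.66-fold above no drug and the member that stood highest there, and its slope was -0.23 ± 0.04 (adjusted p = 0.00397). COX9 (YDL067C, chrIV:334217-334396), another small membrane subunit, was at 36.0 CPM without drug and 43.9, 35.0, 31.9, 43.0, 29.8, 24.0 and 16.9 CPM at points 1 to 7, with a slope of -0.19 ± 0.04 (adjusted p = 0.0132). COX12 and COX13 fell as well, with slopes of -0.15 ± 0.03 (adjusted p = 0.0118) and -0.13 ± 0.04 (adjusted p = 0.0256).

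COX4 (YGL187C, chrVII:149704-150171), a zinc-binding subunit facing the matrix, was at 35.3 CPM without drug and 39.4, 23.9, 37.4, 45.5, 23.6, 22.5 and 14.8 CPM at points 1 to 7. Its scatter was wide, with a low value at point 2, and its slope of -0.18 ± 0.07 was not called by edgeR (adjusted p = 0.0685; 0.0129 by DESeq2) although it was 2.39-fold lower in LiCl only than without drug, the most of this complex. COX5A (YNL052W, chrXIV:531725-532186), the isoform of subunit V made in air, was at 40.9 CPM without drug and 36.9, 32.3, 35.9, 40.8, 27.2, 26.1 and 23.6 CPM at points 1 to 7 and fell with a slope of -0.10 ± 0.03 (adjusted p = 0.0428). That call is near the threshold and was lost by total-count scaling (adjusted p = 0.0579). COX6 (YHR051W, chrVIII:209705-210151) was at 37.6 CPM without drug and 42.3, 29.9, 41.02, 43.9, 35.6, 29.1 and 22.8 CPM at points 1 to 7, with a slope of -0.11 ± 0.04 (adjusted p = 0.0908), and COX8 missed the threshold by edgeR with -0.15 ± 0.05 (adjusted p = 0.0525). COX8 was called by DESeq2 (adjusted p = 0.0121), by limma-voom (adjusted p = 0.0366) and under total-count scaling (adjusted p = 0.0486).

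CYC1 had the steepest fall of the 41. CYC1 (YJR048W, chrX:526335-526664), an isoform of cytochrome c, which carries electrons from the bc1 complex to the oxidase, was at 11.9 CPM without drug and 15.8, 12.9, 11.1, 12.3, 8.03, 5.25 and 4.49 CPM at points 1 to 7. By TMM it was highest at point 1, 1.325-fold above no drug, and points 2 to 4 lay around the no drug level. Points 5 to 7 lay below all other libraries. Its slope was -0.30 ± 0.04 (adjusted p = 0.00146), it was 2.66-fold lower in LiCl only than without drug, and it kept its call when each point was left out in turn. CYC1 was among the lowest members, with 36.1 CPM per kb without drug and 13.6 in LiCl only.

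In the bc1 complex, QCR2 (YPR191W, chrXVI:919381-920487), a core subunit facing the matrix, was at 116 CPM without drug and 101, 92.4, 109.9, 129, 74.1, 62.7 and 41.1 CPM at points 1 to 7. Point 4 was its highest library and LiCl only its lowest, 2.83-fold below no drug, and the slope was -0.20 ± 0.06 (adjusted p = 0.0412). QCR7 fell with a slope of -0.16 ± 0.04 (adjusted p = 0.0246). QCR8 (YJL166W, chrX:106434-106718), a small subunit that lies next to cytochrome b, was at 52.5 CPM without drug and 41.8, 29.6, 35.3, 35.0, 26.1, 22.6 and 26.4 CPM at points 1 to 7. By TMM it was lower in all 7 drug libraries than without drug, it was highest among them at point 1, and it fell with a slope of -0.11 ± 0.03 (adjusted p = 0.0255). QCR6 (YFR033C, chrVI:224326-224769), the acidic hinge subunit, was at 53.9 CPM without drug and 46.3, 37.4, 44.6, 62.1, 33.2, 31.9 and 28.3 CPM at points 1 to 7 and was not called, with a slope of -0.11 ± 0.05 (adjusted p = 0.153). The catalytic subunits RIP1, the Rieske iron-sulfur protein, and CYT1, cytochrome c1, and the other core subunit COR1 had slopes of -0.15 ± 0.06, -0.14 ± 0.06 and -0.14 ± 0.06, with adjusted p values of 0.0881, 0.110 and 0.0909 by edgeR. By DESeq2 RIP1, CYT1 and COR1 were called (adjusted p = 0.0261, 0.0367 and 0.0265). In the group with CYC1, limma-voom called 4 of 8 genes and DESeq2 7.

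Succinate dehydrogenase, which oxidizes succinate to fumarate and hands the electrons to ubiquinone, had the lowest group median in LiCl only. SDH1 (YKL148C, chrXI:169207-171129), the flavoprotein subunit, was at 59.1 CPM without drug and 35.2, 35.9, 41.8, 51.0, 26.7, 26.3 and 14.4 CPM at points 1 to 7. It was 4.10-fold lower in LiCl only than without drug, the largest such difference among the 41, and 1.68-fold lower in cycloheximide only, but its values were higher at each step through points 1 to 4, and its slope of -0.19 ± 0.07 was not called (adjusted p = 0.0753). SDH2 (YLL041C, chrXII:53131-53931), the iron-sulfur subunit, was at 48.6 CPM without drug and 39.5, 30.4, 38.8, 54.4, 23.7, 24.5 and 17.6 CPM at points 1 to 7, with a slope of -0.17 ± 0.07 (adjusted p = 0.0898) and a drop between points 4 and 5 of -1.20.

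The membrane anchors of the complex are SDH3 and SDH4. SDH3 (YKL141W, chrXI:179667-180263) was nearly level through point 4, at 52.2 CPM without drug and 49.0, 47.3, 45.8, 48.5, 34.6, 31.9 and 27.0 CPM at points 1 to 7, and was the only gene of this complex called, with a slope of -0.15 ± 0.03 (adjusted p = 0.00588). SDH4 (YDR178W, chrIV:817950-818495) was at 35.2 CPM without drug and 25.1, 19.9, 25.2, 28.7, 20.01, 17.5 and 15.8 CPM at points 1 to 7, by TMM below no drug in all 7 drug libraries, with a slope of -0.10 ± 0.04 (adjusted p = 0.0918). By DESeq2, SDH1 and SDH2 were called too, at adjusted p = 0.0113 and 0.0221.

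Of the TCA cycle genes, edgeR called a fall for all 4 that lead through citrate to oxoglutarate (CIT1, ACO1, IDH1 and IDH2), and for 1 of the 4 that lead on to succinate (LSC1). All 10 slopes of the group were below 0, and DESeq2 called 7 of the 10. CIT1 lost its call under 5 alternative settings and LSC1 under 3, so the calls do not part these steps of the cycle clearly. ACO1 (YLR304C, chrXII:735212-737548), the mitochondrial aconitase, was at 275 CPM without drug and 214, 197, 214, 221, 140.1, 131 and 80.4 CPM at points 1 to 7, with a slope of -0.21 ± 0.05 (adjusted p = 0.0117), and was 3.42-fold lower in LiCl only than without drug. IDH1 and IDH2, which form the NAD-dependent isocitrate dehydrogenase, fell with slopes of -0.19 ± 0.04 (adjusted p = 0.0132) and -0.19 ± 0.05 (adjusted p = 0.0142). IDH2 overlaps a CDS feature on the opposite strand over 22.6% of its length. CIT1, the mitochondrial citrate synthase, fell with -0.17 ± 0.05 (adjusted p = 0.0393).

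MDH1 (YKL085W, chrXI:279123-280127), the mitochondrial malate dehydrogenase, was at 135 CPM without drug and 93.4, 69.6, 100.0, 126, 50.8, 52.8 and 38.1 CPM at points 1 to 7. It had the largest step between points 4 and 5 of all members (-1.31) and was 3.54-fold lower in LiCl only than without drug, but its slope of -0.20 ± 0.08 was not called by edgeR (adjusted p = 0.0709; 0.0463 by limma-voom). Without point 4 or without point 2 it was called (adjusted p = 0.00702 and 0.0439). LSC2 (YGR244C, chrVII:978036-979319), the beta subunit of succinyl-CoA ligase, was at 86.5 CPM without drug and 55.0, 54.3, 62.6, 76.8, 64.1, 53.2 and 44.7 CPM at points 1 to 7, by TMM lower in every drug library than without drug, and with a slope of -0.03 ± 0.04 (adjusted p = 0.612). KGD1 (YIL125W, chrIX:122689-125733), the oxoglutarate dehydrogenase, was at 226 CPM without drug and 189, 189.8, 234, 252, 193, 188 and 144 CPM at points 1 to 7, with a slope of -0.05 ± 0.04 (adjusted p = 0.360). Fumarase (FUM1) had the smallest step between points 4 and 5 (-0.06) and a small slope that was nevertheless called, -0.08 ± 0.02 (adjusted p = 0.0242). LSC1, the alpha subunit of succinyl-CoA ligase, fell with -0.12 ± 0.03 (adjusted p = 0.0277), and KGD2 had -0.10 ± 0.04 (adjusted p = 0.0877 by edgeR and 0.0374 by DESeq2).

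Levels along the isobole were also set against no drug at the centre of the line, in an edgeR fit over 8 libraries in which the lone no drug library is assumed to vary like the drug libraries. Lower at the centre were 3 of the 41 members, where 12.8% of all genes were, and 0 were higher. These were QCR8 at -0.78 ± 0.17 (SE; adjusted p = 0.0103), SDH4 at -0.71 ± 0.21 (adjusted p = 0.034) and ACO1 at -0.74 ± 0.24 (adjusted p = 0.0482). At an unadjusted p under 0.05, 9 members were lower and 0 higher, and 37 of the 41 estimates were below 0. By total-count scaling 0 members were called and by DESeq2 5. Without point 4 the count was 15, and without point 5 or point 6 it was 1.

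Isoforms and cytosolic or peroxisomal relatives were examined beside the members. CIT2, the peroxisomal citrate synthase and a textbook target of the Rtg1-Rtg3 retrograde factors, was at 23.8 CPM without drug and 37.5, 41.5, 39.3, 41.8, 48.0, 45.3 and 145 CPM at points 1 to 7, whereas CIT1 was at 172 CPM without drug and 161, 122, 161, 183, 99.5, 92.3 and 77.7 CPM at points 1 to 7. CIT2 rose toward LiCl with a slope of 0.26 ± 0.07 (adjusted p = 0.0177) while CIT1 fell, and CIT2 was 6.09-fold higher in LiCl only than without drug. Per kb of CDS, CIT2 was at 104.9 CPM and CIT1 at 54.0 CPM in LiCl only, and at 17.2 and 119 CPM without drug. The rise of CIT2 rests on that library, since without point 7 its slope was 0.06 (adjusted p = 0.137). Of the 32842 windows of 50 bases in the 41 members, 0 occurred a further time in the R64 genome, and the same held for CIT2, CYC7 and COX5B, so that reads matching exactly separate these pairs.

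CYC7, the other cytochrome c isoform, was at 17.9 CPM without drug and 16.1, 8.25, 12.6, 17.9, 5.37, 3.84 and 3.23 CPM at points 1 to 7. Among the drug libraries it was highest at point 4, like most members, and its slope was -0.36 ± 0.10 (adjusted p = 0.0270). Per kb of CDS, CYC7 was above CYC1 without drug, at 52.4 and 36.1 CPM, and below it in LiCl only, at 9.43 and 13.6 CPM. COX5B, the low-oxygen isoform of subunit V, was at 65.6 CPM without drug and 60.7, 36.9, 36.5, 36.2, 31.6, 24.9 and 20.5 CPM at points 1 to 7, with a slope of -0.22 ± 0.03 (adjusted p = 0.00153). On the same scale COX5B was above COX5A without drug, at 143.9 and 88.6 CPM per kb, and below it in LiCl only, at 44.9 and 51.1 CPM per kb. Both isoforms thus fell in each of these pairs. LPD1, the shared lipoamide dehydrogenase subunit, fell with -0.15 ± 0.05 (adjusted p = 0.0327).

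**Figure D3:**
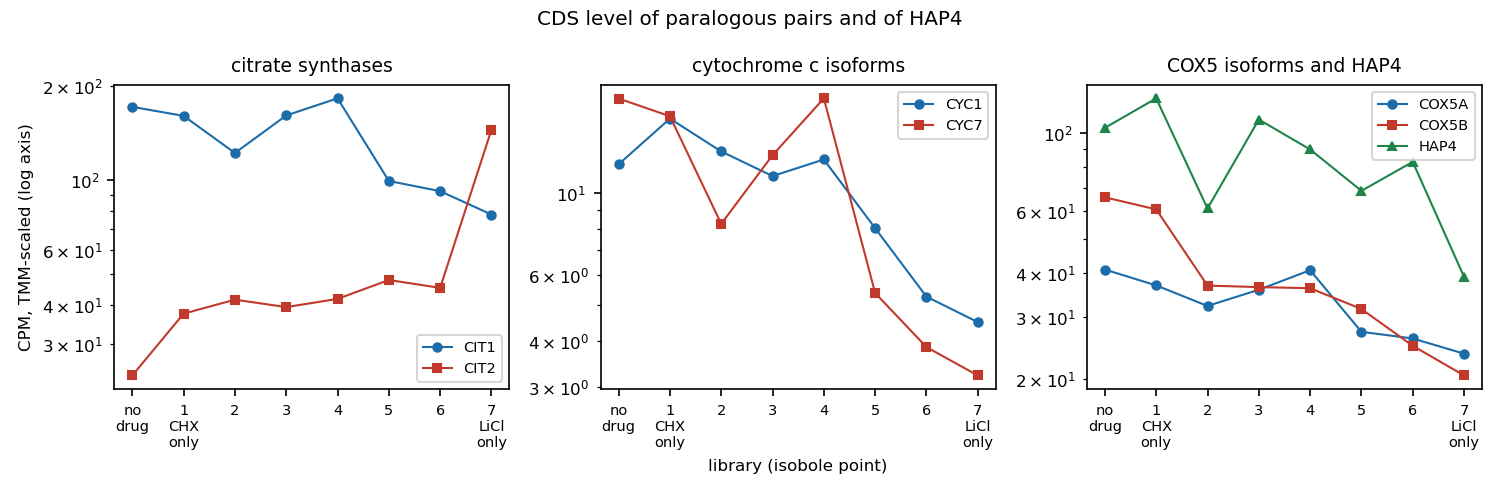
CDS level (y axis, CPM after TMM scaling, log axis) of paralogous pairs and of HAP4 in the 8 libraries (x axis, no drug and then isobole points 1 to 7), 1 line per gene. CIT2 is at 145 CPM in LiCl only and 23.8 CPM without drug, and CIT1 at 77.7 CPM in LiCl only and 172 CPM without drug.

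Of 14 regulators of these genes 0 were called by edgeR in either direction, where 15.1% of all genes fell and 16.5% rose, with 1 regulator higher and 1 lower at an unadjusted p under 0.05 and 1 lower by DESeq2. HAP4, the limiting activator subunit, was at 103 CPM without drug and 125, 61.0, 109, 89.8, 68.5, 82.8 and 39.0 CPM at points 1 to 7, lowest in LiCl only, with a slope of -0.17 ± 0.07 that edgeR did not call (adjusted p = 0.0687) and DESeq2 did (adjusted p = 0.0154). Its level was uneven, with a low value at point 2 and without the peak at point 4 that most members had. HAP1, a heme-responsive activator whose gene carries a Ty insertion in S288C-derived strains, had a slope of 0.05 ± 0.02 (adjusted p = 0.121). RTG1 and RTG3 had slopes of 0.06 ± 0.02 (adjusted p = 0.0684) and -0.02 ± 0.02 (adjusted p = 0.616).

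Of 27 other respiratory and TCA genes, including alternative dehydrogenases, pyruvate dehydrogenase and glyoxylate cycle genes, 12 fell, 1 rose (CIT2) and 14 were not called, with a median slope of -0.07. The lowest slopes after that of CYC7 were those of MDH2, a cytosolic malate dehydrogenase, at -0.24 ± 0.04 and of COX5B. Of 32 assembly factors 9 fell and 2 rose, with a median slope of -0.03. COX17, a copper chaperone of the oxidase, fell with -0.21 ± 0.04 (adjusted p = 0.00513), while PET122 and PET309, translational activators of mitochondrial COX3 and COX1 messages, rose with 0.16 ± 0.03 (adjusted p = 0.00885) and 0.09 ± 0.02 (adjusted p = 0.0136). Of 66 mitochondrial ribosomal protein genes 23 fell and 0 rose (0 rose at an unadjusted p under 0.05 or by DESeq2 too), with a median of -0.07, and 43 were lower at the isobole centre than without drug. Beside these lists, 15.1% of all genes fell, 16.5% rose and 12.8% were lower at the centre.

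The median step from point 4 to point 5 was -0.30 for the other respiratory and TCA genes, -0.12 for assembly factors, -0.21 for mitochondrial ribosomal proteins and 0.24 for 17 glycolysis genes, of which 2 were lower at point 5, where 48.2% of all genes were, beside -0.61 for the members. Glycolysis genes were below no drug in LiCl only as well, by a median of -0.59, and 4 of 17 fell along the isobole, where 15.1% of all genes did. HXK1, a hexokinase that glucose represses and the glycolysis gene with the lowest slope, was also highest at point 4 and lowest in LiCl only, at 706 CPM without drug and 627, 499.5, 845, 1049, 301, 256 and 102 CPM at points 1 to 7, with a slope of -0.41 ± 0.15 (adjusted p = 0.0660). These lists were compared by counts and medians without a test.

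**Figure D4:**
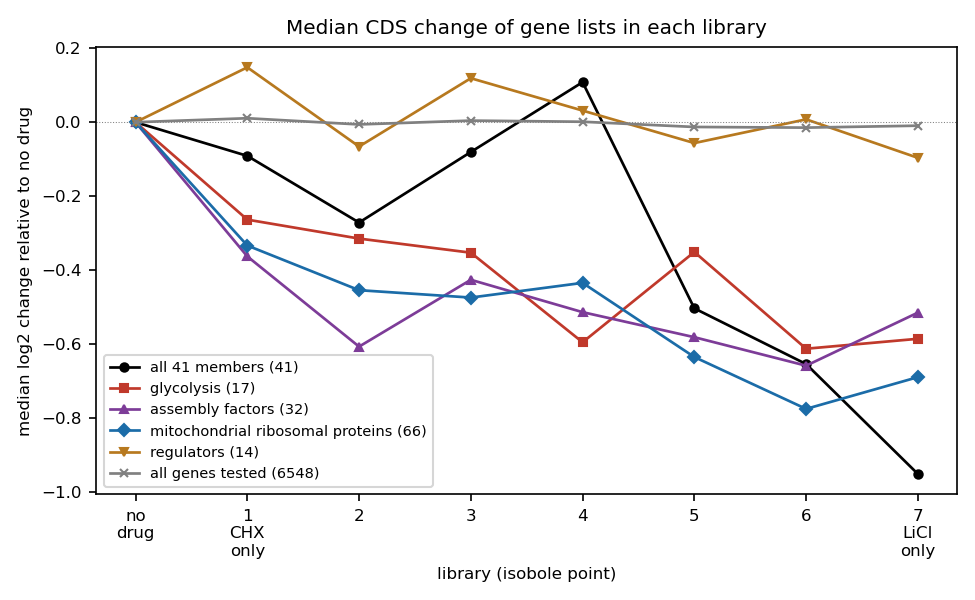
Median log2 change in CDS level relative to no drug (y axis) of the 41 members and of 4 other lists, and of all 6548 genes, in each library (x axis, no drug and then isobole points 1 to 7). The members' median is 0.11 at point 4, -0.50 at point 5 and -0.95 in LiCl only, while that of glycolysis genes is -0.60 at point 4 and -0.35 at point 5.

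Intron retention was followed where respiratory genes hold an intron. The only member with one is COX4, whose 5′ untranslated region contains an intron at chrVII:150184-150525. Its retention, intron counts per base over CDS counts per base, was 0.137 without drug and 0.184, 0.311, 0.206, 0.242, 0.202, 0.344 and 0.352 at points 1 to 7, on 45 to 131 intron counts. It was higher by 1.36 ± 0.27 (counting SE, log2) in LiCl only than without drug, and its slope of 0.12 ± 0.06 was not called by edgeR (adjusted p = 0.077). Of 255 introns tested, 64.3% rose in retention toward LiCl. QCR9, a small bc1 subunit with a CDS intron, had a retention of 0.182 without drug and 0.164, 0.202, 0.133, 0.141, 0.286, 0.349 and 0.383 at points 1 to 7. That retention rose with a slope of 0.23 ± 0.06 (adjusted p = 0.00464) while the CDS level of QCR9 fell with -0.21 ± 0.06 (adjusted p = 0.0261). CDS counts are the denominator of retention, so fewer CDS counts alone raise it.

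The intron of COX5B rose in retention with a slope of 0.29 ± 0.08 (adjusted p = 0.00498), on 5 to 23 intron counts. That of QCR10, another small bc1 subunit, had only 3 to 17 counts and a slope of 0.09 ± 0.09 (adjusted p = 0.408), while its CDS level fell with -0.22 ± 0.07 (adjusted p = 0.0342). The median slope over the 255 introns was 0.28, above those of COX4, QCR9 and QCR10. Intron counts in cycloheximide only and LiCl only were 112 and 115 for QCR9, and 131 and 114 for COX4. They were 22 and 23 for COX5B, and 14 and 12 for QCR10. Those 2 libraries held 23522386 and 28042336 CDS counts. Whether unspliced RNA itself rose was not tested.

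Most members, 31 of the 41, were highest at point 4 among the drug libraries, and 9 were highest at point 1. The 500 bases before each start codon were read from the R64 genome. They were searched on both strands for the binding motif of the Hap activator, CCAAT, and for its extended form CCAATNA, which contains it. CCAATNA occurred upstream of 34 of the 41 members (82.9%), against 1453 of 5993 promoters (24.2%). CCAAT alone occurred in 36 members (87.8%), against 62.5% of all promoters. By group, CCAATNA was found in 11 of 11 ATP synthase genes, 7 of 8 of cytochrome c oxidase, 4 of 8 of cytochrome bc1 with CYC1, 4 of 4 of succinate dehydrogenase and 8 of 10 of the TCA cycle, and outside the members in 17 of 27 other respiratory and TCA genes (63.0%), 5 of 14 regulators (35.7%), 3 of 17 glycolysis genes and 5 of 32 assembly factors. The following windows show it for members of each complex, 5′ to 3′ on the strand of the gene with the match in capitals, which reads TNATTGG where it lies on the opposite strand. They are ATP1 at chrII:36575-36597 (+), COX7 at chrXIII:779277-779299 (-), RIP1 at chrV:107005-107027 (+), SDH1 at chrXI:171432-171454 (-), ACO1 at chrXII:737824-737846 (-) and COX12 at chrXII:225363-225385 (-).
ATP1: ggccctggCCAATCAgatccctt
COX7: gcagtactTGATTGGctacgccg
RIP1: ataacggaCCAATCAgcgttttg
SDH1: ggggtggaCCAATCAcagcgcag
ACO1: ggtcctgaCCAATCAatagagaa
COX12: aacattgaCCAATCAattttcag

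The match of ATP1 ends 464 bases before its start codon, that of RIP1 241 bases, that of SDH1 311 bases and that of ACO1 284 bases. The 7 members without CCAATNA in this window, COX4, QCR2, QCR6, CYT1, CYC1, LSC1 and LSC2, had a median slope of -0.14 and 3 of them fell, beside -0.15 and 19 of 34 for those with it. The window of COX4 is mostly filled by its 342-base intron, so little of the sequence upstream of that intron was read. Whether COX4 holds CCAATNA further upstream was not tested, and the same limit holds for each other motif searched in COX4. CYC1 had the steepest slope and no such match. A match is a description of letters and does not show binding in these cultures.

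The letters GGTCAC, the box bound by Rtg1-Rtg3, were found upstream of 9 members (22.0%), against 9.54% of all promoters, and 5 of these 9 were among the 8 genes of cytochrome bc1 with CYC1. Of these 9, 5 fell along the isobole, with a median slope of -0.16, beside 17 of the 32 without it, with a median of -0.14. Among the 27 other respiratory and TCA genes 8 held it (29.6%), and CIT2 had 2 matches. The consensus motif of Hap1, a pair of CGG triplets around a TA, occurred upstream of QCR6 alone among the members, at 2 positions, and in 21 of all 5993 promoters (0.35%). The windows of CIT2 are chrIII:122661-122682 and chrIII:122627-122648, and those of QCR6 are chrVI:225040-225067 and chrVI:224975-225002, all on the reverse strand, with matches in capitals and read on the gene strand.
CIT2 a: ggcgaagaGGTCACgacctatt
CIT2 b: aaaaaagtGTGACCttttccgt
QCR6 a: gcggcctgCCGGTACATCCGtcacctac
QCR6 b: gcacgttcCGGGCATATCGGactggggc

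**Figure D5:**
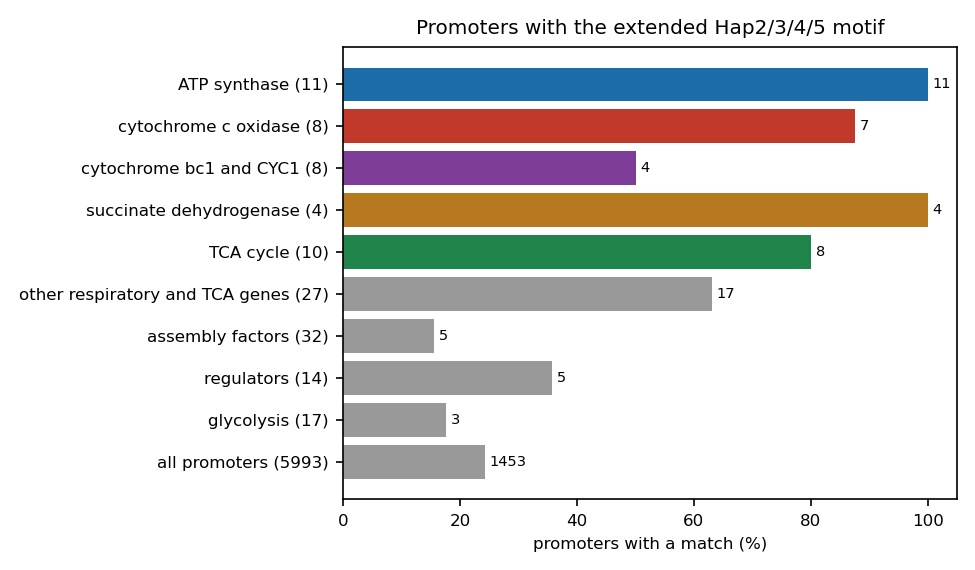
Share of promoters (x axis, percent of the 500-base windows before the start codon) with at least 1 CCAATNA on either strand, for each group of members and for other lists (y axis), with the number of promoters holding it at the end of each bar. The 5 groups of members lie between 50.0% and 100.0%, and all promoters are at 24.2%.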

How the data were processed

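The 8 ribodepleted libraries were sequenced as 50-base single reads. Per the submitters' notes and methods, reads were aligned to build R64 with TopHat, and the authors counted them with featureCounts 1.6.2. The deposited values are raw counts per CDS, CDS intron and 5′ UTR intron. Per the file headers, reads with several alignments or features were counted at each and strand was not set, which makes counts of overlapping and antisense genes uncertain. Files held 0 unused sample columns.

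CDS counts were scaled by TMM, filtered with filterByExpr and fitted with edgeR 4.0.16 (R 4.3.3), with DESeq2 1.42.0 and limma 3.58.1 as alternatives. The SE of a fitted term is its size over the square root of F. Single libraries were compared as log2 CPM with a prior count of 0.5, called at 2-fold, with counting error only. The intron filter required 5 intron and 20 CDS counts on average. Further alternatives were total-count and DESeq2 scaling, no filter, a prior count of 5, a 1.5-fold call and leaving out each point. The scripts were tested on simulated data.

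Members and lists were chosen with earlier results of these data known. Given in full were, per complex, the 2 steepest and 2 flattest slopes and the largest change against no drug in either single-drug library, with fixed paralogues, regulators and intron genes. HXK1, MDH2, COX17, PET122 and PET309 are list extremes. A further gene is not reported here and is in none of the lists. Gene coordinates are those of the deposited counts. Promoter windows of 500 bases were read from RefSeq's R64 genome, since no promoter table was used here. Other tools were Python 3.11.15, pandas 2.3.3 and matplotlib 3.10.9.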

Additional observations from a re-analysis of the deposited data

How the results depend on the processing

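No paired analysis was possible because each condition had 1 library. Under DESeq2's test the members falling along the isobole numbered 34, curvature was called for 84 genes higher and 201 lower with 10 members lower, and 5 members were lower at the centre. Total-count scaling gave 70 higher, 36 lower and 0 members for curvature, 1923 higher, 233 lower and 0 members for the centre, 1302 higher, 214 lower, 7 members lower and a members' median of -0.60 for LiCl only against no drug, and 753 higher, 56 lower, 1 member higher and a median of 0.24 for cycloheximide only against no drug. By complex it gave medians for LiCl only minus no drug of -0.43 for ATP synthase, -0.46 for cytochrome c oxidase, -0.70 for cytochrome bc1 with CYC1, -0.95 for succinate dehydrogenase and -0.69 for the TCA cycle. A 1.5-fold call gave 1428 higher, 1200 lower and 37 members lower for LiCl only against no drug, 902 higher, 572 lower, 1 member higher and 2 lower for cycloheximide only against no drug, and 1168 higher, 1070 lower and 37 members lower for LiCl only against cycloheximide only. Without a filter 2 introns fell.

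Leaving out each point in turn gave 351 to 1122 genes rising, 486 to 1100 falling and 5 to 37 members falling along the isobole. For curvature it gave 0 to 91 genes higher, 0 to 146 lower and 0 to 8 members lower, for the centre 1 to 15 members lower, and 0 to 3 introns falling. The slope of KGD1 lay between -0.10 and 0.0048 and that of LSC2 between -0.071 and 0.027, both above 0 without point 7. The causes were not tested. All other fitted values recomputed for single genes (slope, curvature, centre difference and intron retention) kept their direction, which does not cover differences between single libraries, and over the alternatives 73 values lost and 50 gained a call and 563 stayed on the same side of the threshold. With 1 library per condition, scatter around a line is the only measure of spread, and the fewest counts behind a member's level were 82, for CYC1 at point 6.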

Other observations

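Among the 27 other respiratory and TCA genes, 4 were higher and 3 lower at the isobole centre than without drug by edgeR, where 14.4% of all genes were higher and 12.8% lower. The share that was higher is near that of all genes, and the 4 are named here after their values were seen. PCK1, the phosphoenolpyruvate carboxykinase of gluconeogenesis, was at 2.50 CPM without drug and 14.4, 14.3, 13.3, 13.5, 11.2, 16.7 and 11.4 CPM at points 1 to 7, with a centre difference of 2.43 ± 0.29 (SE; adjusted p = 4.32e-04) on the log2 scale. ICL1 and MLS1, isocitrate lyase and malate synthase of the glyoxylate cycle, had centre differences of 0.71 ± 0.16 (SE; adjusted p = 0.0113) and 1.12 ± 0.26 (SE; adjusted p = 0.0122), and MLS1 lay between 7.72 and 11.5 CPM at points 1 to 7, against 4.21 CPM without drug. PYC1, a pyruvate carboxylase, had 0.66 ± 0.17 (SE; adjusted p = 0.0183). PCK1, MLS1, ICL1 and PYC1 had slopes of -0.03 ± 0.03, -0.00 ± 0.04, -0.02 ± 0.03 and -0.03 ± 0.03 along the isobole, and 0 of these 4 were called there by edgeR, with 0 at an unadjusted p under 0.05. The lone no drug library was assumed to vary like the drug libraries in this fit, and its lower inoculum cannot be told apart from the absence of drug.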
